A study of Homo sapiens with 12 samples.

Results

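The DNAJ family, also called the HSP40 or J-domain co-chaperones, was examined in RNA from MM1S and MM1R cells. These are multiple myeloma lines derived from a single patient, of which MM1S is sensitive and MM1R resistant to glucocorticoids. Members were all entries of the count table whose symbol is DNAJA, DNAJB or DNAJC followed by a number and at most 1 letter, which gave 45 of 43735 genes (4 of class A, 13 of class B and 28 of class C). Libraries were made from 12 cultures in 4 groups of 3, namely each line without treatment (untreated) and each line exposed to withaferin A (WA). WA, a steroidal lactone of Withania somnifera, was given at 1 µM for 3 h. The cultures of MM1S were of passages 16, 22 and 23 and those of MM1R of passages 4, 6 and 7, and within a line each passage gave 1 untreated culture and 1 culture with WA. Because the lines shared no passage, line and passage cannot be told apart, and because each phenotype is represented by 1 cell line, a difference between them applies to these lines only.

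J-domain proteins bind HSP70 chaperones and stimulate their ATPase, which closes HSP70 on a client protein. They thereby decide which clients HSP70 holds, while nucleotide exchange factors release the ADP and the client. Class A members carry a J domain, a glycine- and phenylalanine-rich stretch and a zinc finger-like region, class B members lack the zinc finger-like region, and class C members share only the J domain and are spread over many compartments. In stressed cells some members are transcribed by heat shock factor 1, which binds heat shock elements, arrays of GAA and TTC units in alternating orientation.

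The libraries held 17625110 to 19368343 counted reads. Plasma cell markers were present in every library (SDC1, the syndecan used to recognise plasma cells, had 10066 to 15966 reads). The 8 plasma cell markers summed to 4744 to 5354 counts per 1000000 reads (CPM, scaled by the TMM method) in untreated MM1S and 4417 to 4753 with WA, and to 5652 to 5979 CPM in untreated MM1R and 4528 to 5134 with WA, ranges that did not overlap in MM1R. The 17 markers of other cell types summed to 10.5 to 14.4 CPM in untreated MM1S and 13.7 to 21.9 CPM with WA. Of the latter, CD3E, HBB and COL1A1 reached 211, 178 and 294 reads, whereas MPO, ELANE and COL1A2 had 0 reads. In MM1R they summed to 17.8 to 21.7 CPM untreated and 23.1 to 35.7 CPM with WA, and the part of both marker lists in the results was not tested. These are bulk libraries, in which fewer expressing cells and less RNA per cell cannot be told apart.

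The promoters of the 6 members with the largest changes with WA in at least 1 line are shown first, 5 with a match to a heat shock element and DNAJB2 without one. RefSeq windows on GRCh38.p14, from 250 bases before to 50 bases after an annotated start site, were matched for 40 of the 45 members (52 windows). They were searched for GAANNTTC and TTCNNGAA, 2 units of a heat shock element, and for GAANNTTCNNGAA and TTCNNGAANNTTC, 3 units. The 2 forms with 2 units are each their own reverse complement and those with 3 units are the reverse complements of each other, so both strands were covered. A match to 3 units holds 2 overlapping matches to 2 units. The windows are written 5′ to 3′ on the strand of the gene, in lower case, with the matched units in capitals. For DNAJA1 and DNAJB6 only the match to 3 units is in capitals.
DNAJB1, chr19:14518348-14518647, minus strand: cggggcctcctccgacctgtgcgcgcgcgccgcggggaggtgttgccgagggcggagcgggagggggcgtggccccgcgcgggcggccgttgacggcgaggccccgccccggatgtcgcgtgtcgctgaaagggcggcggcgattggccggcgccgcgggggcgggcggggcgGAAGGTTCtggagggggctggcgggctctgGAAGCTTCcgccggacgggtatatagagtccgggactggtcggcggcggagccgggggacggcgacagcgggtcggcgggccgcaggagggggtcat
DNAJA4, chr15:78264312-78264611, plus strand: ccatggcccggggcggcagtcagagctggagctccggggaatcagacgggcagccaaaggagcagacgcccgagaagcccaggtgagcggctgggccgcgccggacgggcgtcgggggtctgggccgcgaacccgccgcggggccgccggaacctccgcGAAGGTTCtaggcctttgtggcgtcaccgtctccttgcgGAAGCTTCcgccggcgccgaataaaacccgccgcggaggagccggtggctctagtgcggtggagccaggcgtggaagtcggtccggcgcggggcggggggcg
DNAJB6, chr7:157336754-157337053, plus strand: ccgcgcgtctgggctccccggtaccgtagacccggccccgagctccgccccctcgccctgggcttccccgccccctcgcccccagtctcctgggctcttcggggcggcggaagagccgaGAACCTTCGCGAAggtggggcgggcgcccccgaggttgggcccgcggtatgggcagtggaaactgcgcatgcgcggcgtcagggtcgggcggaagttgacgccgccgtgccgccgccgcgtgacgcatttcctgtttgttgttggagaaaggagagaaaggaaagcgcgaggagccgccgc
DNAJA1, chr9:33025023-33025322, plus strand: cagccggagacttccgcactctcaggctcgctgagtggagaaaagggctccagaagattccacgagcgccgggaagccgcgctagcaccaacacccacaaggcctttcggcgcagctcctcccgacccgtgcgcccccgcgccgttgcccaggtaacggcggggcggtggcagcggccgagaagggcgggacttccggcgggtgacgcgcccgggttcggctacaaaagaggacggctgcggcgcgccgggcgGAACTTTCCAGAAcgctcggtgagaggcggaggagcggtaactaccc
DNAJB4, chr1:78004689-78004988, plus strand: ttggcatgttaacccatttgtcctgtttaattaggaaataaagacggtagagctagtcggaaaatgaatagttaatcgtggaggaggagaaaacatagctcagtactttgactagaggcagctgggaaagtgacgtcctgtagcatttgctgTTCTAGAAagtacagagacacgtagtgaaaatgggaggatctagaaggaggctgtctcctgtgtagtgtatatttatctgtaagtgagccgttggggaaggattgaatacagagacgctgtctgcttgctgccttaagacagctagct
DNAJB2, chr2:219279116-219279415, plus strand: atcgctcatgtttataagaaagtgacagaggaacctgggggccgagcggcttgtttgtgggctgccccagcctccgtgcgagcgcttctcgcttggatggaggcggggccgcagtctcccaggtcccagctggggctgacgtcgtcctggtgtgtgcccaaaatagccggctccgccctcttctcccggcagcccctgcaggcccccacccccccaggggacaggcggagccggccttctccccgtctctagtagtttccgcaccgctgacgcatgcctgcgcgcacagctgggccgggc

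The windows of DNAJB1 and DNAJA4 held the same pair of matches in the same order. In DNAJB1, GAAGGTTC lay from 77 to 70 and GAAGCTTC from 47 to 40 bases before the start site. In DNAJA4, GAAGGTTC lay from 91 to 84 and GAAGCTTC from 52 to 45 bases before it. DNAJB6 held GAACCTTCGCGAA from 131 to 119 bases before its start, and DNAJA1 held GAACTTTCCAGAA at bases 4 to 16 counted from its start. The window of DNAJA1 also held a separate match to 2 units, GAAGATTC, before its start, which is printed in lower case. DNAJB4 held a single TTCTAGAA from 98 to 91 bases before its start, and the window of DNAJB2 held no match. DNAJB1, DNAJA4 and DNAJB4 have further annotated start sites, and of their other windows only 1 of DNAJB1 held a match (GAAGCTTC).

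The 3-unit forms were found in 0.490% of all 35116 windows and the 2-unit forms in 13.5%. By gene, the 2-unit forms occurred in 16.2% of 27305 genes and in 8 of the 40 members with a window (20.0%). Of the 12 members with a window that were called with WA in at least 1 line, as described next, 5 held a 2-unit match (DNAJA1, DNAJA4, DNAJB1, DNAJB4 and DNAJB6). Of the 22 with a window that were tested and called in neither line, 2 held one (DNAJC6 and DNAJC15), and of the 6 untested members with a window 1 did (DNAJB7). Such matches describe letters within these windows and show no binding.

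Of the 45 members, 36 had enough reads to be tested (3 of class A, 10 of class B and 23 of class C). DNAJA3, a mitochondrial member, and DNAJC18, DNAJC28 and DNAJB8 are listed at 0 in all libraries. The first 3 of these also have a copy entry in the table, likewise at 0, and their level is not known. DNAJB3, DNAJC22, DNAJC5G, DNAJB7 and DNAJC5B had at most 13 reads in any library.

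Levels between genes were compared as CPM per kb of the canonical transcript. In untreated cells DNAJB11, an ER-resident partner of BiP, was the highest member with 165 ± 13.0 CPM per kb in MM1S and 173 ± 8.42 in MM1R (SD, n = 3). DNAJA1, a cytosolic class A member, followed with 123 ± 6.44 and 113 ± 2.77 CPM per kb. DNAJC1, an ER membrane J protein that also contacts ribosomes, was at 82.3 ± 9.3 and 106 ± 6.14 CPM per kb. DNAJB1, the classical stress-inducible partner of cytosolic HSP70, was at 77.1 ± 10.5 and 72.5 ± 8.61 CPM per kb, the fifth place in both lines. DNAJC8, a splicing-linked member, lay within 1 SD of DNAJC1 in untreated MM1S and of DNAJB1 in both untreated lines. DNAJC1 also lay within 1 SD of DNAJB1 in untreated MM1S. With WA, DNAJB1 took the first place, with 2324 ± 1320.5 CPM per kb in MM1S and 3062 ± 1849.8 in MM1R, and DNAJA1 kept the second. DNAJB2 moved from place 20 to place 8 in MM1S, where DNAJC1, DNAJC7, DNAJC8, DNAJB9 and DNAJC3 lay within 1 SD of it. In MM1R it moved from place 16 to place 5, where DNAJB9, DNAJB6 and DNAJC7 lay within 1 SD of it. DNAJA4 was the lowest of the 36 tested members in untreated cells of both lines, at 0.103 ± 0.0181 and 0.0454 ± 0.0472 CPM per kb.

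**Figure D1:**
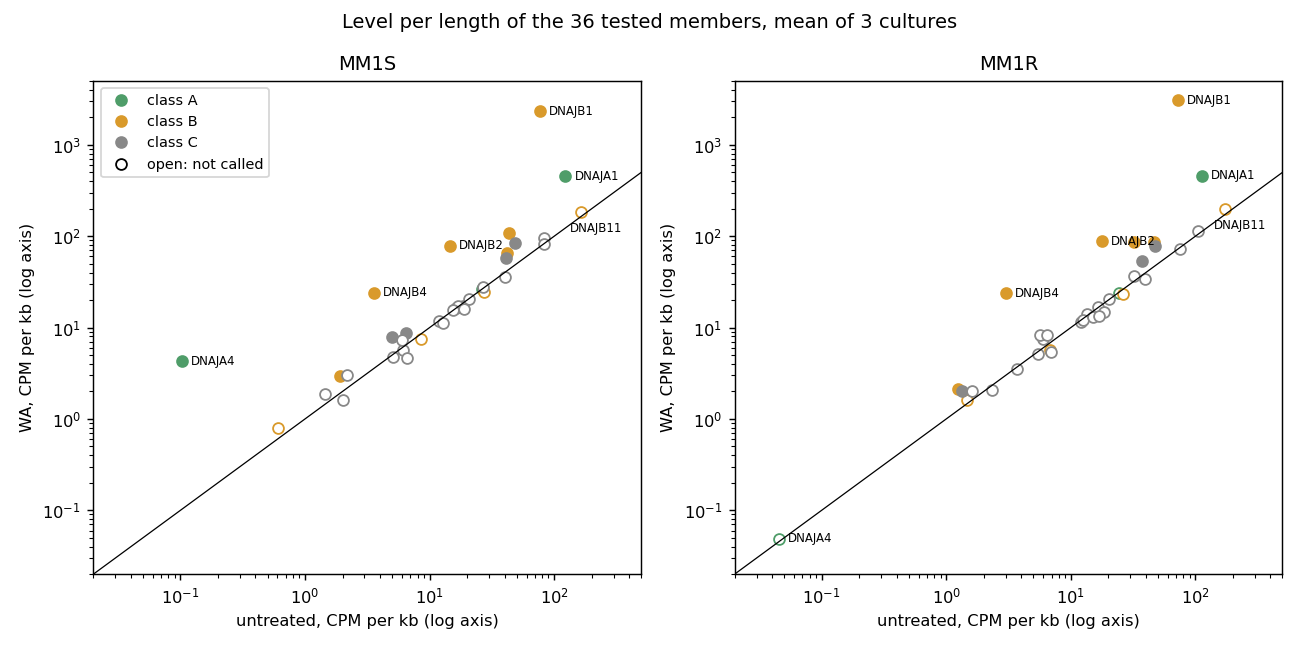
Level per length of the 36 tested members in untreated cells (horizontal axis) and with WA (vertical axis), in CPM per kb on log axes, for MM1S (left) and MM1R (right). Each point is the mean of 3 cultures, colours give the class, filled points were called with WA and the line marks equal levels. DNAJB1, DNAJA1, DNAJB2 and DNAJB4 lie above the line in both lines, and DNAJA4 does so in MM1S.

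WA raised a group of cytosolic and nuclear DNAJ transcripts in both lines. A member was called when its adjusted p was under 0.05 by the quasi-likelihood test of edgeR, adjusted over all 14085 tested genes by the Benjamini-Hochberg method. In MM1R 10 of the 36 tested members were called, all of them higher with WA, where 14.0% of all tested genes were called (7.55% higher and 6.46% lower). In MM1S 12 were called, again all higher, against 10.5% of all tested genes (6.25% higher and 4.23% lower). Of these, 9 were called in both lines, namely DNAJA1, DNAJB1, DNAJB2, DNAJB4, DNAJB5, DNAJB6, DNAJB9, DNAJC3 and DNAJC7. DNAJC27 was called in MM1R only, and DNAJA4, DNAJC16 and DNAJC24 in MM1S only, which does not by itself show a difference between lines. All the members called in a line were higher in each of its 3 pairs of cultures. The 3 WA cultures lay above all 3 untreated cultures for 15 members in MM1R (17.3% of all tested genes) and for 15 in MM1S (16.4%). They lay below them for 2 members in MM1R (16.0% of all tested genes) and for 4 in MM1S (13.9%).

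The classes differed in how many members were called, though class C lay near the shares of all tested genes, 14.0% in MM1R and 10.5% in MM1S. In class B 6 of the 10 tested members were called in each line, and the median log2 change was 0.83 in MM1R and 0.61 in MM1S. In class C 3 of 23 were called in MM1R and 4 of 23 in MM1S, with medians of -0.00 and 0.02. In class A 1 of 3 was called in MM1R and 2 of 3 in MM1S. The median over all tested genes was 0.01 in both lines. The difference between classes was not tested.

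**Figure D2:**
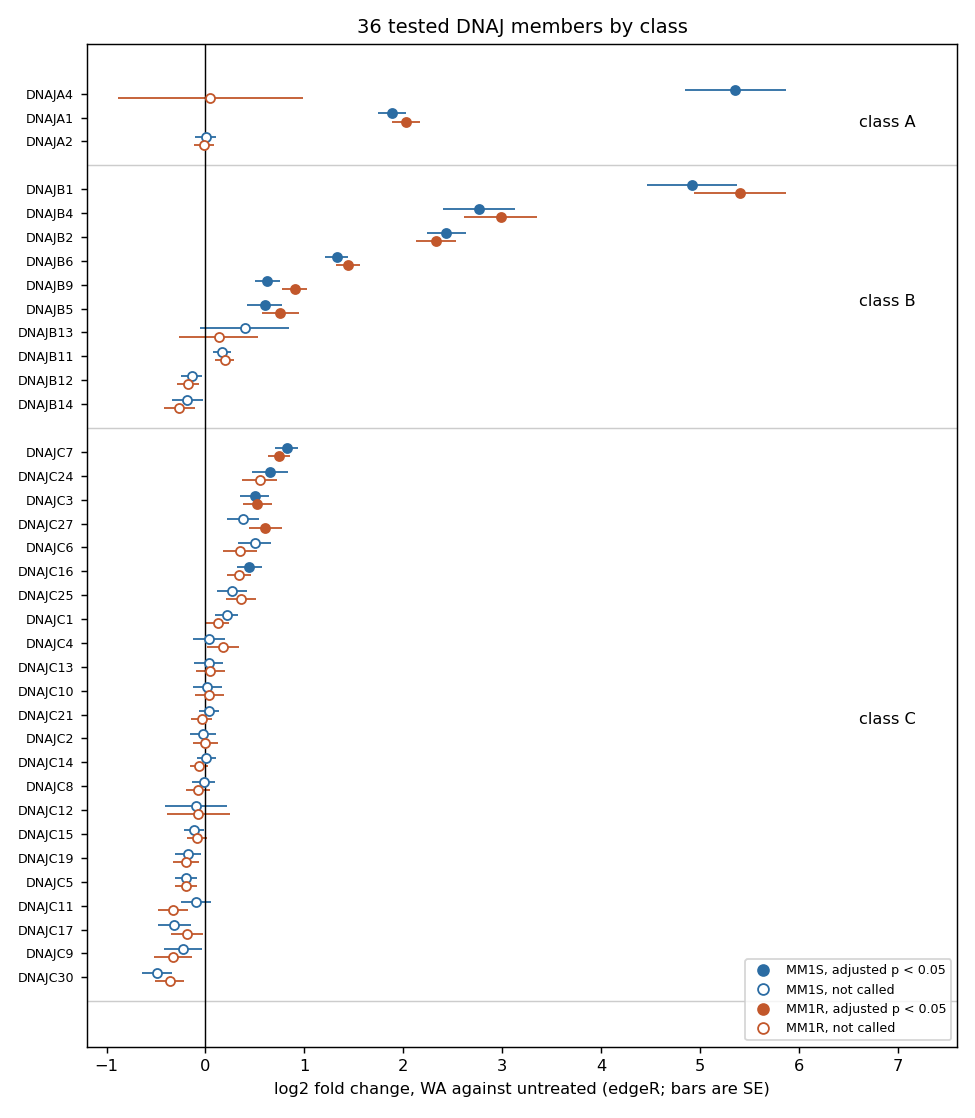
Log2 fold change with WA against untreated cells for the 36 tested members, grouped by class and ordered by the mean of both lines. Points are edgeR estimates with their SE as bars, blue for MM1S and orange for MM1R, filled where the adjusted p was under 0.05. Class B and DNAJA1 hold most of the filled points far from 0, class C clusters near 0, and DNAJA4 has a filled point in MM1S (5.35) and an open one in MM1R (0.05).

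By the compartment assigned from textbook knowledge, 7 of 9 cytosolic and nuclear folding members were called in MM1R and 8 of 9 in MM1S (median log2 fold changes 1.44 and 1.88). Of the 10 tested ER members, 2 were called in MM1R and 3 in MM1S. None of the 5 mitochondrial, 3 endocytic and vesicle or 5 nuclear, splicing and ribosome-linked members was called in either line. For all these counts, 14.0% of all tested genes were called in MM1R and 10.5% in MM1S, and 0 in groups this small is not far from that. In MM1S 1 mitochondrial and 1 vesicle member had an unadjusted p under 0.05, as did 2 mitochondrial members in MM1R. The share of all tested genes with such a p was not counted. With passage number as a replicate block, described later, 4 of these 13 were called, namely DNAJC11 and DNAJC9 in MM1R (adjusted p = 0.020 and 0.032) and DNAJC30 and DNAJC6 in MM1S (adjusted p = 0.027 and 0.020). That fit called 29.1% of all tested genes in MM1R and 24.1% in MM1S. DNAJA2, a cytosolic class A member close to DNAJA1 in domain layout, was at 73.1, 80.0 and 82.8 CPM in untreated MM1S and 72.3, 83.1 and 80.6 with WA. The groups overlapped, and its log2 fold change was 0.00 (SE 0.10, adjusted p = 1.0) in MM1S and -0.01 (SE 0.10, adjusted p = 0.96) in MM1R.

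DNAJB1 had the largest change of the members in MM1R and, after DNAJA4, in MM1S. The gene lies on the minus strand of chromosome 19 from 14625581 to 14671203 (GRCh37). It was at 184, 189 and 146 CPM in untreated MM1S of passages 16, 22 and 23 and at 4492, 2675 and 8464 CPM with WA. In MM1R of passages 4, 6 and 7 it was at 142, 180.4 and 165 CPM untreated and at 3978, 4999 and 11618 CPM with WA. The groups lay far apart in both lines, and with WA the cultures of passages 23 and 7 were the highest of their lines. On the log2 scale the change was 4.91 (SE 0.46, adjusted p = 2.0e-05) in MM1S and 5.40 (SE 0.47, adjusted p = 1.4e-05) in MM1R by edgeR, a fold of 30.1 and 42.2. Leaving out the passage 7 culture with WA gave 4.81 in MM1R. Within pairs of the same passage it was 4.61, 3.82 and 5.85 in MM1S and 4.80, 4.79 and 6.13 in MM1R. Exons of DNAJB1 overlap those of TECR on the other strand, and whether the counting used strand is not given in the sources used here.

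**Figure D3:**
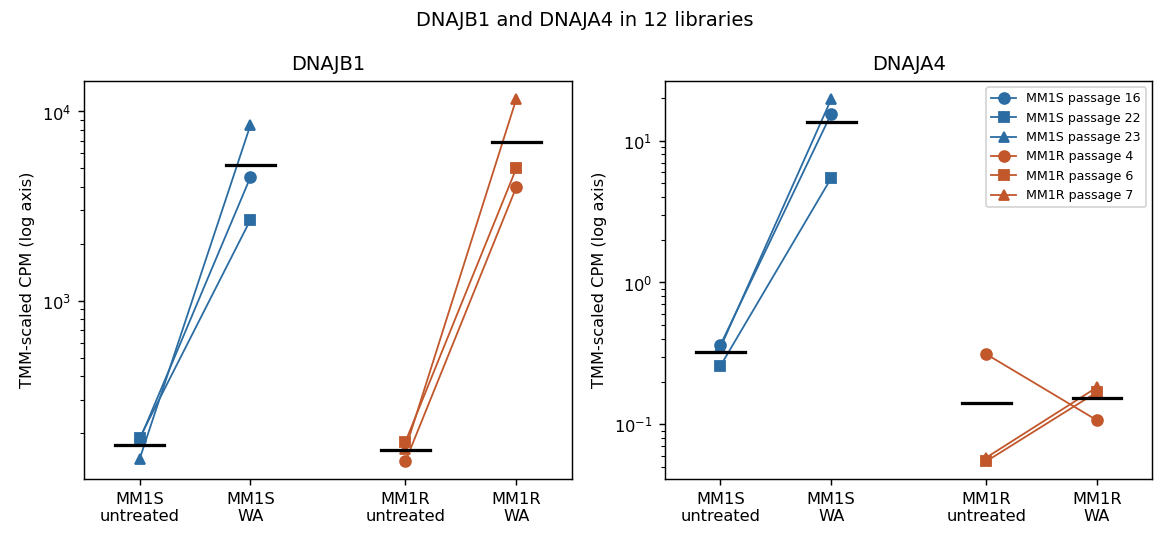
DNAJB1 (left) and DNAJA4 (right) in 12 libraries, as TMM-scaled CPM on a log axis. Symbols are cultures, lines join cultures of equal passage, and black bars are means of 3 cultures. DNAJB1 rises in all 6 pairs, from 142 to 189 CPM up to 2675 to 11618 CPM, whereas DNAJA4 rises in the 3 MM1S pairs and stays under 0.4 CPM in MM1R.

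Reads of the whole family moved with DNAJB1. The 45 members took 0.259% to 0.307% of all counted reads in untreated cells and 0.673% to 1.50% with WA (6 libraries each). DNAJB1 made up 4.93% to 6.38% of the DNAJ reads in untreated cells and 39.5% to 72.1% with WA. Class C, the largest class, took 0.151% to 0.178% of all reads untreated and 0.164% to 0.200% with WA. These ranges overlap over both lines, but in MM1S alone they did not (0.171% to 0.177% and 0.181% to 0.200%), and the class C share was higher with WA in all 6 pairs. Class B without DNAJB1 took 0.0601% to 0.0719% untreated and 0.103% to 0.127% with WA, and class A went from 0.0320% to 0.0386% up to 0.0967% to 0.128%.

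**Figure D4:**
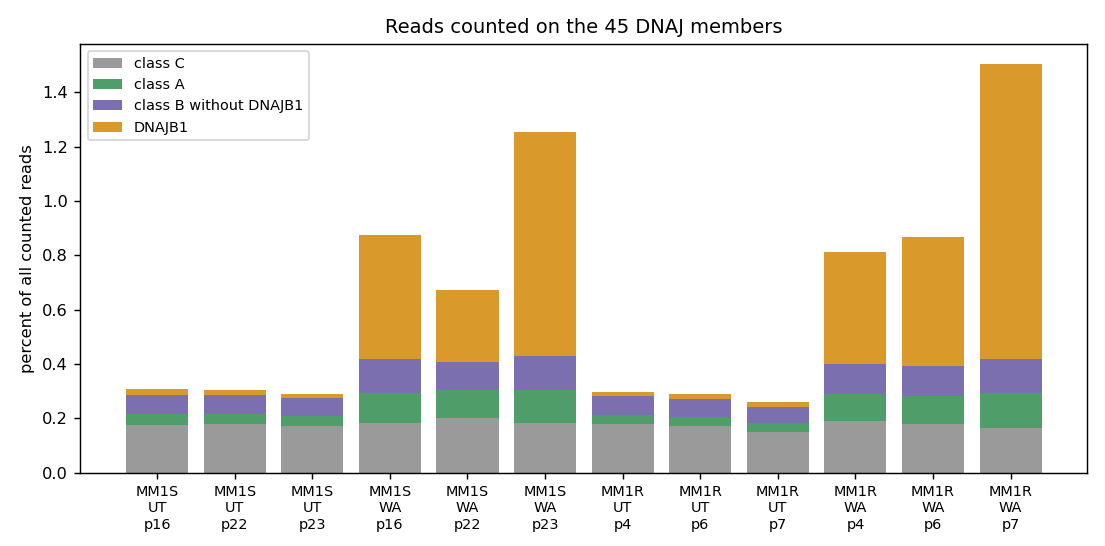
Percent of all counted reads that fell on the 45 members in each library (UT, untreated; p, passage), stacked by class with DNAJB1 apart from the rest of class B. DNAJB1 accounts for most of the added height with WA, and the bars of passage 23 of MM1S (1.25%) and passage 7 of MM1R (1.50%) are the tallest of their lines.

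Further cytosolic members followed with smaller changes. DNAJA1 (chromosome 9, 33025271 to 33039905, plus strand, GRCh37) was at 299, 288 and 269 CPM in untreated MM1S and 1016, 957 and 1179 with WA. In MM1R it was at 259, 269 and 258 CPM untreated and 865, 1027 and 1303 with WA. All WA cultures lay above all untreated cultures, and on the log2 scale the change was 1.88 (SE 0.14, adjusted p = 4.8e-06) in MM1S and 2.02 (SE 0.14, adjusted p = 2.4e-06) in MM1R. DNAJA1 carries a lipid anchor and assists protein import and folding.

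DNAJB4 (chromosome 1, 78444859 to 78483648, plus strand), a close relative of DNAJB1, was at 10.0, 10.5 and 10.4 CPM in untreated MM1S and 60.9, 48.5 and 101 with WA. In MM1R it went from 10.5, 8.34 and 7.23 CPM to 42.5, 46.8 and 117 CPM. As for DNAJB1, passages 23 and 7 were the highest with WA, and the log2 fold changes were 2.76 (SE 0.36, adjusted p = 0.00032) and 2.98 (SE 0.37, adjusted p = 0.00020). Leaving out the passage 7 culture with WA gave 2.38 in MM1R. Exons of DNAJB4 overlap those of GIPC2 on the same strand.

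DNAJB2 (chromosome 2, 220144064 to 220151620, plus strand) encodes a member with ubiquitin-interacting motifs that hands HSP70 clients to the proteasome. It was at 48.3, 45.9 and 39.7 CPM in untreated MM1S and 303, 161 and 259 with WA. In MM1R it was at 55.8, 51.2 and 55.5 CPM and 239, 249 and 329 CPM. The groups did not overlap in either line, passage 22 of MM1S was the lowest with WA, and the log2 fold changes were 2.44 (SE 0.20, adjusted p = 8.1e-06) in MM1S and 2.33 (SE 0.20, adjusted p = 1.3e-05) in MM1R.

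DNAJB6 (chromosome 7, 157128075 to 157210133, plus strand), known for holding back the aggregation of polyglutamine proteins, was at 112, 107 and 104 CPM in untreated MM1S and 279, 244 and 286 with WA. In MM1R it was at 80.8, 78.9 and 80.2 CPM untreated, below all untreated MM1S cultures, and at 180.1, 225 and 246 CPM with WA, a range that overlaps that of MM1S with WA. The log2 fold changes with WA were 1.33 (SE 0.12, adjusted p = 1.5e-05) and 1.44 (SE 0.12, adjusted p = 9.7e-06). Between the untreated lines MM1R was lower, with -0.43 (SE 0.12, adjusted p = 0.031) on the log2 scale, which is within the limit on p used for WA and short of the limits used for lines.

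DNAJC7 (chromosome 17, 40128439 to 40173394, minus strand), whose tetratricopeptide repeats bind both HSP70 and HSP90, showed the largest change of class C. It was at 85.9, 86.2 and 88.4 CPM in untreated MM1S and 147, 148 and 165 with WA. In MM1R it was at 77.7, 83.0 and 93.9 CPM and 125, 138 and 163 CPM. The groups did not overlap, and the log2 fold changes were 0.82 (SE 0.11, adjusted p = 0.00053) and 0.74 (SE 0.11, adjusted p = 0.00096). Its exons overlap those of CNP and NKIRAS2 on the other strand.

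**Figure D5:**
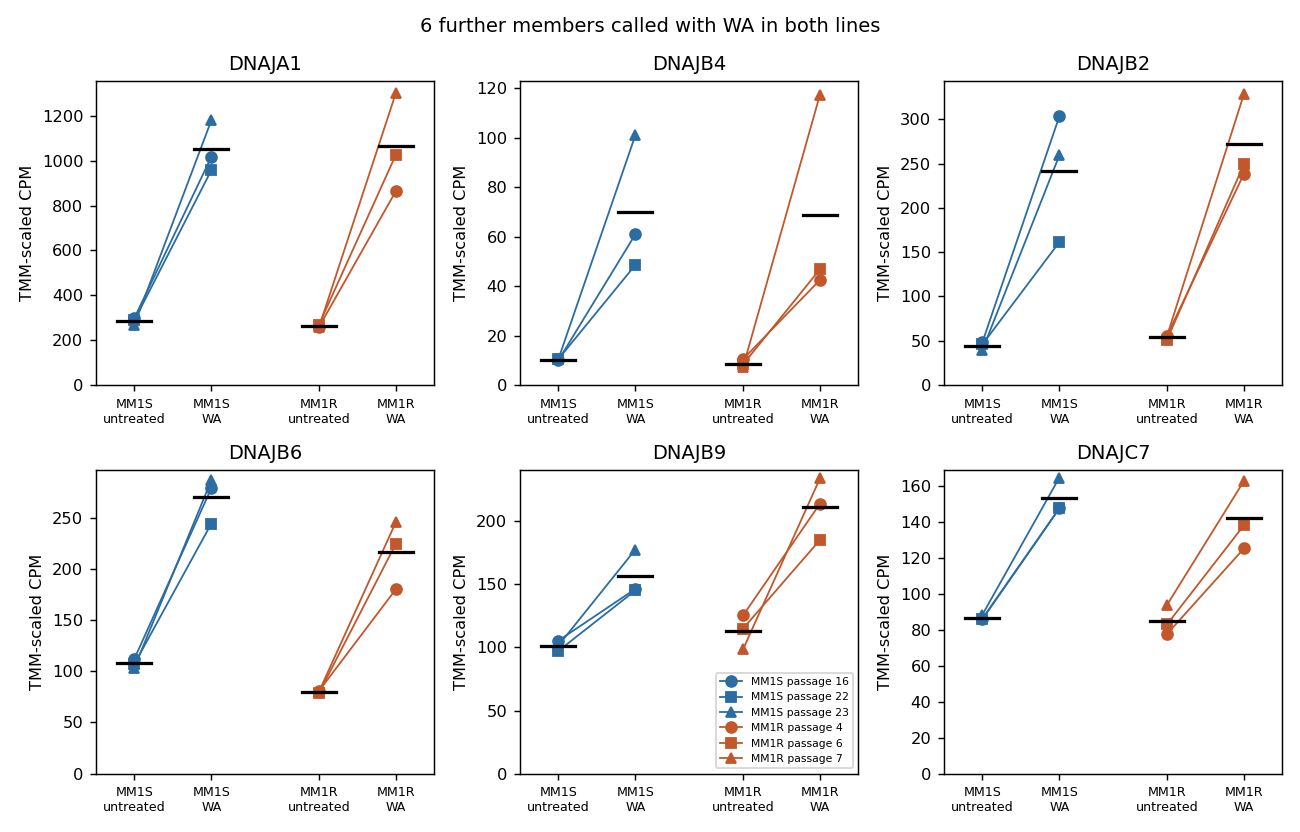
TMM-scaled CPM of 6 further members in 12 libraries, on linear axes that start at 0. Symbols are cultures, lines join the cultures of the same passage and black bars are means of 3. In all 6 panels the WA cultures lie above the untreated cultures of the same line.

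In the ER fewer members were called. DNAJB9 (chromosome 7, 108210311 to 108215294, plus strand), which directs misfolded proteins to ER-associated degradation, was at 105, 97.2 and 101 CPM in untreated MM1S and 146, 145 and 177 with WA. In MM1R it was at 125, 115 and 98.4 CPM and 214, 185 and 234 CPM, and the log2 fold changes were 0.62 (SE 0.12, adjusted p = 0.0063) and 0.90 (SE 0.12, adjusted p = 0.00046). DNAJC3, an ER member that also restrains the kinase PERK, was called in both lines with log2 fold changes of 0.50 (SE 0.15, adjusted p = 0.044) in MM1S and 0.52 (SE 0.15, adjusted p = 0.029) in MM1R. DNAJC16, an ER membrane member, was called in MM1S (0.44, SE 0.12, adjusted p = 0.035) and not in MM1R, where its log2 change was 0.34 (SE 0.12, adjusted p = 0.086).

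Of classes B and C, the highest members per length that were called in no comparison both act in the ER. DNAJB11 was at 277, 288 and 247 CPM in untreated MM1S and 299, 311 and 301 with WA, and at 292, 293 and 269 and 319, 336 and 321 in MM1R. Its WA cultures lay above its untreated cultures in both lines by small amounts, and the log2 changes were 0.17 (SE 0.09, adjusted p = 0.30) and 0.19 (SE 0.09, adjusted p = 0.20). DNAJC1 had log2 fold changes of 0.21 (SE 0.12, adjusted p = 0.28) and 0.12 (SE 0.12, adjusted p = 0.54). Of 11 ER stress genes, 1 was called in MM1R (DDIT3, 3.06, SE 0.72, adjusted p = 0.013), against 14.0% of all tested genes. None was called in MM1S, against 10.5%, where DDIT3 had 2.24 (SE 0.70, adjusted p = 0.057). In MM1S 2 of them had an unadjusted p under 0.05, and the share of all tested genes under that limit was not counted.

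The remaining called members had low levels and calls near the limit in the main fit. DNAJB5, a cytosolic relative of DNAJB1, was at 5.8, 4.91 and 4.57 CPM in untreated MM1S and 7.42, 8.11 and 7.64 with WA (0.60, SE 0.18, adjusted p = 0.045), and at 3.12, 3.95 and 2.8 and 5.39, 5.79 and 5.54 CPM in MM1R (0.76, SE 0.18, adjusted p = 0.015). DNAJC24, which takes part in making diphthamide on elongation factor 2, had 0.65 (SE 0.18, adjusted p = 0.034) in MM1S and 0.55 (SE 0.18, adjusted p = 0.058) in MM1R. DNAJC27, which joins a Rab-like GTPase to a J domain, had 0.38 (SE 0.16, adjusted p = 0.16) in MM1S and 0.61 (SE 0.16, adjusted p = 0.025) in MM1R, and its exons overlap those of DNAJC27-AS1 on the other strand.

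Some calls were lost when single libraries were left out of the fit without a term for passage. With 1 library left out, 6.57% to 16.7% of all tested genes were called in MM1R and 5.03% to 11.2% in MM1S. DNAJA1, DNAJB1, DNAJB2, DNAJB4, DNAJB6, DNAJB9 and DNAJC7 (7 members) were called in both lines under all 21 settings, and DNAJA4 in MM1S under the 20 settings that tested it. In MM1S DNAJB5, DNAJC3, DNAJC16 and DNAJC24 were all lost, leaving 8 members, without untreated MM1S of passage 16, 22 or 23, without MM1S with WA of passage 16 or 23, or without untreated MM1R of passage 6 (adjusted p up to 0.17). The first 3 of them were also lost without MM1S with WA of passage 22 or MM1R with WA of passage 6, DNAJB5 and DNAJC3 without MM1R with WA of passage 4, and DNAJB5 without that of passage 7. In MM1R 7 members were left without untreated MM1R of passage 7, where DNAJB5, DNAJC3 and DNAJC27 were lost (adjusted p up to 0.10). DNAJC27 was lost as well without untreated MM1R of passage 4, and DNAJC3 without that of passage 6. Both were lost without MM1R with WA of passage 4 or 6. DNAJC16 was gained in MM1R without untreated passage 4 (adjusted p = 0.019) and DNAJC24 without passage 4 with WA (adjusted p = 0.014). In MM1S DNAJC30 was gained, as lower with WA, without untreated MM1R of passage 7.

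With passage number as a replicate block, 15 members were called in each line, while 29.1% of all tested genes in MM1R and 24.1% in MM1S were. The members lost above were among them. In MM1S, DNAJB5, DNAJC3, DNAJC16 and DNAJC24 had adjusted p of 0.014, 0.0025, 0.0045 and 0.0087 in this edgeR fit. In MM1R, DNAJB5, DNAJC3 and DNAJC27 had 0.0052, 0.0011 and 0.0068. In MM1R the added calls were DNAJC16 (0.35, SE 0.09, adjusted p = 0.015), DNAJC24 (0.51, SE 0.15, adjusted p = 0.024) and DNAJC25 (0.36, SE 0.12, adjusted p = 0.039), and 2 that were lower with WA, DNAJC11 (-0.32, SE 0.09, adjusted p = 0.020), a mitochondrial member, and DNAJC9 (-0.33, SE 0.11, adjusted p = 0.032), a histone co-chaperone. In MM1S they were DNAJC6 (0.51, SE 0.14, adjusted p = 0.020), the auxilin that uncoats clathrin vesicles, DNAJC1 (0.21, SE 0.07, adjusted p = 0.045) and the mitochondrial DNAJC30 (-0.49, SE 0.14, adjusted p = 0.027), which was lower. DNAJC30 was at 15.4 to 18.1 CPM in untreated MM1S and at 11.2 to 12.2 CPM with WA, groups that did not overlap, and without the block its log2 fold change was -0.49 (SE 0.15, adjusted p = 0.057). Exons of DNAJC11 overlap those of THAP3, and exons of DNAJC9 those of FAM149B1, in each case on the other strand.

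The partners of the family in the HSP70 cycle were counted by lists. Of 9 tested HSP70 genes, 5 were higher with WA in MM1R and 3 in MM1S, and none was lower. Here and for the lists that follow, 7.55% of all tested genes were higher in MM1R and 6.25% in MM1S. HSPA6, which is induced by heat, had log2 fold changes of 11.07 in MM1R and 10.19 in MM1S, but reads could be divided between it and its near-identical copy HSPA7. HSPA8, the constitutive cytosolic HSP70, had 1.75 (SE 0.16, adjusted p = 1.8e-05) and 1.78 (SE 0.16, adjusted p = 1.4e-05). HSPA1B was called in both lines from at most 1 read in any untreated culture, and HSPA1A and HSPA1L are listed at 0 beside 4 copy entries each, so that the inducible HSP70 is not resolved.

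Of 13 nucleotide exchange factors, 4 were higher in each line, namely BAG3 (5.21 in MM1R and 4.55 in MM1S), HSPH1 (3.62 and 3.30), HSPA4L (1.54 and 1.35) and HSPA4 (1.34 and 1.35). Of 5 other co-chaperones linked to HSP70, 4 were higher in both lines. CHORDC1, which binds HSP90, changed most (2.15 and 2.63), followed by STIP1, which bridges HSP70 and HSP90 (1.06 and 1.18), ST13 and AHSA1. STUB1, a ubiquitin ligase that acts on HSP70 clients, was lower, with -0.38 (SE 0.12, adjusted p = 0.0495) in MM1R and -0.41 (SE 0.12, adjusted p = 0.044) in MM1S.

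Between the lines, members were called at an adjusted p under 0.01 and a log2 fold change over 1 in size. In untreated cells 0 of 36 members passed (2.97% of all tested genes did, 1.48% higher and 1.49% lower in MM1R), and 7 members had an unadjusted p under 0.05. The share of all tested genes with such an unadjusted p was not counted. DESeq2 likewise called 0 members between the untreated lines. At an adjusted p of 0.05 with no limit on the fold change, where 11.9% of all tested genes passed, DNAJB5 (-0.63, SE 0.18, adjusted p = 0.041) and DNAJB6 were lower in MM1R. DNAJB1 had -0.09 (SE 0.39, adjusted p = 0.91) and DNAJA1 -0.12 (SE 0.14, adjusted p = 0.62). With WA, 1 of 36 members passed, DNAJA4, which was lower in MM1R, while 3.04% of all tested genes passed (1.63% higher and 1.41% lower). At an adjusted p of 0.05 with no limit on the fold change, where 12% of all tested genes passed, DNAJB9 (0.43, SE 0.12, adjusted p = 0.037) was also higher in MM1R, and DNAJC6 (-0.58, SE 0.17, adjusted p = 0.039) and DNAJC21 (-0.36, SE 0.10, adjusted p = 0.037), a factor of ribosome biogenesis, were lower. DNAJB1 had 0.40 (SE 0.39, adjusted p = 0.54) between the lines with WA.

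DNAJA4, a class A member of the cytosol, was the only member called between the lines with WA. The gene lies on the plus strand of chromosome 15 between 78556428 and 78574538 (GRCh37), and its canonical transcript has 7 exons. In MM1S of passages 16, 22 and 23 it had 7, 5 and 7 reads untreated and 285, 102 and 359 reads with WA. In MM1R of passages 4, 6 and 7 it had 6, 1 and 1 reads untreated and 2, 3 and 3 reads with WA. Every MM1S culture with WA had at least 102 reads and every other culture at most 7. DNAJA4 thus passed the filter on low counts through MM1S with WA alone, and its tests rest on the group in which it is high.

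In CPM, DNAJA4 went from 0.363, 0.258 and 0.348 to 15.4, 5.44 and 19.6 in MM1S, and from 0.312, 0.0549 and 0.0583 to 0.107, 0.169 and 0.183 in MM1R. The log2 fold change with WA was 5.35 (SE 0.51, adjusted p = 2.6e-05) in MM1S and 0.05 (SE 0.93, adjusted p = 0.98) in MM1R, where both groups lay at or near the floor of 3 reads per library. Without untreated MM1R of passage 4, the value in MM1R was 1.32 (adjusted p = 0.49), and without untreated MM1R of passage 6 it was -0.33 (adjusted p = 0.90). With WA the log2 difference of MM1R from MM1S was -6.42 (SE 0.57 and adjusted p = 1.2e-05 by edgeR). Since no MM1R culture with WA had more than 3 reads, this is a difference against the floor of 3 reads per library, and DNAJA4 was at least 79.2-fold higher in MM1S. In untreated cells the log2 fold change between the lines was -1.11 (SE 0.79, adjusted p = 0.40), a difference that was not detectable at 1 to 7 reads per culture. Without untreated MM1R of passage 4 it was -2.38 (adjusted p = 0.16).

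Whether WA acted differently in MM1R and MM1S was tested with an interaction term, called at an adjusted p under 0.05. By edgeR's quasi-likelihood test 0 members were called, as 0% of all tested genes were, and 1 member had an unadjusted p under 0.05 (0.689% of all tested genes did). That member was DNAJA4, with a difference of -5.30 on the log2 scale (SE 1.19, unadjusted p = 0.00057, adjusted p = 1.0) and the smallest p of all 14085 genes. As it entered this test only through MM1S with WA, where it is high, this p and rank are no independent support for a difference. DESeq2 called it (adjusted p = 0.0022), as did edgeR with no filter on low counts (adjusted p = 2.2e-05), while the fit with passage as a replicate block did not (adjusted p = 0.41). With 1 library left out the difference was -5.68 to -4.03, the latter without untreated MM1R of passage 4. For DNAJB1 the difference was 0.49 (SE 0.55), for DNAJA1 0.14 (SE 0.19), for DNAJB4 0.22 (SE 0.49) and for DNAJB6 0.11 (SE 0.16), none of which passed (adjusted p = 1.0 for each).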

How the data were processed

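Total RNA from both lines, with and without WA (3 independent cultures for each group), was sequenced as paired-end reads on a BGISEQ instrument. Per the submitters' processing notes, reads were checked with FastQC 0.11.5 and mapped to hg19 with STAR 2.7.3a. The authors deposited raw counts of reads per gene and, separately, counts scaled by DESeq2, which were not used here. The annotation and the strand setting are not given in the sources used here, so that overlapping genes on either strand may share reads. Group, treatment, dose, time and passage were taken from the sample labels.

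Counts were tested with edgeR 4.0.16 (R 4.3.3) in 1 fit of all 12 libraries, with filterByExpr (minimum count 10, 14085 of 26497 genes with reads kept), TMM scaling, the quasi-likelihood test and Benjamini-Hochberg adjustment. WA effects and interactions were called at an adjusted p of 0.05, and lines at 0.01 with a log2 fold change of 1. Log2 changes within pairs used a pseudocount of 0.5 CPM. The floor was 3 reads per library, which covers counting error only. Alternatives were DESeq2 1.42.0, other scalings, filters, thresholds, a replicate block, the compared libraries alone and each library left out. The fits were checked on simulated data with known changes.

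Untreated and WA cultures of the same passage deviated together from their group means (correlations 0.74, 0.26 and 0.49 in MM1S of passages 16, 22 and 23, and 0.43, 0.22 and 0.25 in MM1R of passages 4, 6 and 7), though untreated passage 23 also correlated with passage 22 with WA at 0.42, and untreated passage 22 with passage 23 with WA at 0.35. The labels give the shared passage, so the passages pair the cultures. The main fit, without a term for passage, was kept as planned. The block is given where it changes a call and for calls lost with 1 library left out. Replicate counts gave a chi-square of 8.06 to 44.3 for each degree of freedom, so none was a duplicate. Levels per length used the canonical transcript in the GENCODE annotation of GRCh37, a choice made after the counts were seen. Coordinates are from that annotation, which may differ from the models used for counting.

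Members, lists and compartments were chosen with earlier results of these data known. Named members are DNAJB1, DNAJA4, the other class A genes, those called in any comparison and, per class, the highest uncalled member per length. Of each partner list, at most 4 genes called in both lines are named by size of change. A further list of J-domain proteins is not reported here. Members named as moving under other settings, and DNAJC21, STUB1, HSPA1A, HSPA1L and DDIT3, were chosen after their values were seen.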

Additional observations from a re-analysis of the deposited data

Results flagged for a closer look

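For DNAJA4, a test of the difference in WA effect between the lines passed by DESeq2 but not in the main fit. By DESeq2 the log2 fold change with WA differed by -5.32 (MM1R minus MM1S, adjusted p = 0.0022). DNAJA4 was the only gene so called, 0.0038% of all genes with reads. edgeR's quasi-likelihood test gave -5.30 (SE 1.19) with an adjusted p of 1.0 after the filter on low counts. With no filter it called DNAJA4 (adjusted p = 2.2e-05), where 0.042% of all genes were called. The edgeR fit with passage as a replicate block did not call it (adjusted p = 0.41). In MM1R only 1 to 6 reads per library were counted. All these tests rest on MM1S with WA, the group in which DNAJA4 is high. Their p-values are thus no independent support for a difference. The log2 changes within pairs were 4.21, 2.97 and 4.57 in MM1S and -0.42, 0.27 and 0.29 in MM1R.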

How the results depend on the processing

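The count of members called with WA stayed within 1.5 times its main value under each alternative run. It was 7 to 15 in MM1R and 8 to 15 in MM1S, the highest with passage as a replicate block (15 in each) and, at an adjusted p of 0.01, 7 and 8. The share of all tested genes called also moved. It was 5.76% in MM1R and 3.95% in MM1S at an adjusted p of 0.01, and 29.1% and 24.1% with the block. With 1 library left out the count of members was 7 to 10 in MM1R and 8 to 13 in MM1S. The share of all tested genes was then 6.57% to 16.7% in MM1R and 5.03% to 11.2% in MM1S. The interaction count went from 0 to 1 with no filter on low counts and to 1 with DESeq2 (DNAJA4 in both), and the cause was not tested. Of all genes with reads, 0.042% and 0.0038% were called under these settings. With WA the count between lines went from 1 to 0 when at least 10 reads were required in every library, since DNAJA4 was then not tested, and to 4 at an adjusted p of 0.05 with no fold limit. Untreated, it went from 0 to 2 under that looser limit. For the single named members, no value reversed its direction among called results. Of these, 916 values with 1 library left out kept their side of the threshold, 42 lost it and 2 gained it, and of the values under other alternatives 559 kept it, 15 lost it and 11 gained it. DNAJC30 was called lower in MM1S by library totals alone, by DESeq2's size factors, by DESeq2, with the 6 libraries compared alone and with the replicate block. It was also called lower there without untreated MM1R of passage 7. Depth limits DNAJA4 in MM1R, where 1 to 6 reads per library were counted, and small changes of class C members such as DNAJC1 and DNAJC11 were called only with the replicate block.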

Other observations

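The transcripts named after DNAJ genes but outside the family were sparse. DNAJC3-DT, a divergent transcript beside DNAJC3, had 22 to 37 reads in the 6 untreated libraries and 28 to 92 with WA, ranges that overlap. DNAJC9-AS1 had 57 to 82 reads untreated and 39 to 62 with WA. DNAJC27-AS1 and DNAJB5-DT had at most 8 reads in any library.

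With WA, the largest change within a pair fell on passage 23 for 10 of the 12 members called in MM1S (not for DNAJC3 and DNAJC16, which were highest in passage 22) and on passage 7 for 9 of the 10 called in MM1R (not for DNAJC27, highest in passage 4). The same count was not made over all tested genes, so a pattern particular to the members is not shown. The cultures of passages 23 and 7 with WA also had the largest shares of DNAJ reads in their lines (1.25% and 1.50%).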
